A study of Mus musculus with 2 samples.

Results

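A set of 10 genes used to recognise the endothelium of the liver was examined in hepatic RNA of apolipoprotein E-deficient mice on 2 high-fat diets. They comprised 6 genes typical of sinusoidal endothelial cells, Stab1, Stab2, Lyve1, Clec4g, Fcgr2b and Mrc1, and 4 genes of endothelium in general, Kdr, Pecam1, Cdh5 and Plvap. The genes were listed by name, with earlier results of these data known, as were the companion gene lists further below. Every probe set that the platform annotation assigned to one of the 10 genes was taken. This gave 16 probe sets out of 22690 on the array, 11 for the sinusoidal genes and 5 for the general endothelial genes. The 10 genes were among 12393 that had a probe set with a single gene symbol.

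All animals lacked apolipoprotein E, which leads to high plasma cholesterol and atherosclerosis, and all received a high-fat diet. The array titled orujo represents liver after feeding with added unsaponifiable fraction of olive oil, that is, its minor components other than fatty acid esters. The array titled olive represents liver after feeding with added olive oil itself. They are called the orujo array and the olive array here. The study compares types of olive oil by hepatic gene expression. The sources used here do not give sex, age, strain background or the number of animals behind each array. With 1 array per diet, each ratio compares those arrays only, and neither a test of the diets nor a p-value could be given.

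Liver sinusoids are lined by a specialised endothelium whose cells are perforated by open fenestrae and lack an organised basement membrane. These cells remove waste macromolecules, immune complexes and modified lipoproteins from blood through a set of endocytic receptors, several of which are the markers studied here. The general endothelial genes encode the main receptor for vascular endothelial growth factor, adhesion molecules of the cell junction, and a structural protein of the diaphragms found in other endothelia. Because whole liver was profiled, a lower signal from fewer endothelial cells cannot be told apart from one that comes from less RNA per cell.

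Values are linear intensities of probe sets, deposited after scaling to a common trimmed mean. A signal of 35.6, the median of both arrays pooled, was used as a floor in place of detection calls. Genes that exceeded it on both arrays are termed measured, and their log2 ratio is orujo minus olive. Intensities depend on the affinity of each probe set, so levels are compared between arrays for 1 probe set and never between genes.

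The endothelial genes had similar signals on both arrays. Of the 10 genes, 9 were measured, and 0 of these differed at least 2-fold in either direction. Among all 6640 measured genes, 1.33% lay at or past 2-fold higher on the orujo array and 0.979% at or past 2-fold lower. A count of 0 of 9 does not stand apart from those shares. Measured members lay between a log2 ratio of -0.30 for Kdr and 0.36 for Plvap. An absolute ratio of 0.36 or less was found for 69.8% of measured genes. The remaining gene, Lyve1, lay above the floor on the orujo array only. Among all 12393 genes, 394 lay above it on the orujo array only, 584 on the olive array only and 4775 on neither.

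The only repeated measurement in these data is that of different probe sets for the same gene. In 1453 genes with 2 measured probe sets, the 2 log2 ratios differed with an SD of 0.44, or 0.31 for a single probe set. Of the 9 measured members, 1 (Plvap) lay beyond 0.31 in size, as did 35.7% of all measured genes. The probe sets of a gene share RNA, labelling and hybridisation, so array differences common to them are not in this spread. It shows measurement noise, can include transcript-isoform differences, and holds no variation between animals.

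**Figure D1:**
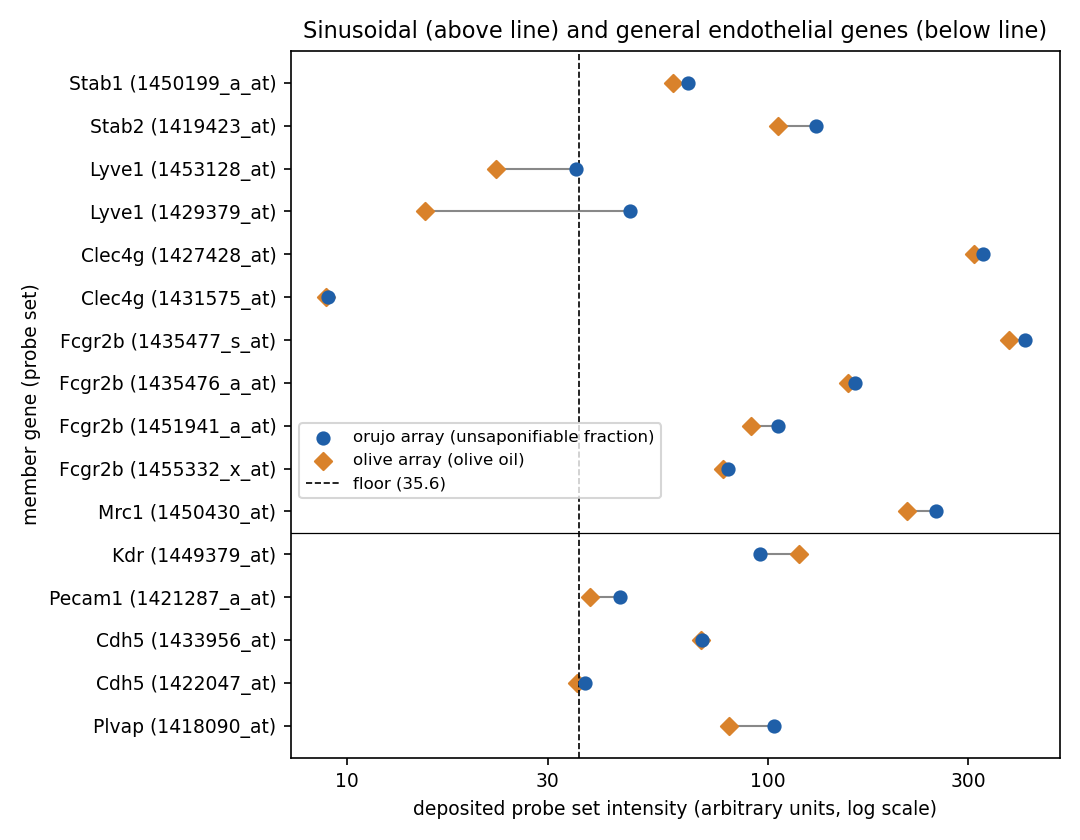
Deposited intensity (x axis, log scale, arbitrary units) of the 16 member probe sets on the orujo array (blue circles) and the olive array (orange diamonds), with 1 array per diet and no error bars. The dashed line is the floor of 35.6. Most circle and diamond pairs lie close together, and the 2 Lyve1 probe sets show the widest gaps.

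Among the sinusoidal genes, the stabilins encode large scavenger receptors of the sinusoidal lining. Stab1, which encodes stabilin-1 and is also expressed by alternatively activated macrophages, had a signal of 64.7 on the orujo array and 59.6 on the olive array. This is a 1.09-fold higher value (log2 ratio 0.12), well inside the spread of a single probe set. Stab2 encodes stabilin-2, the main receptor that clears hyaluronan from blood. Its signal was 130.4 against 105.6, a 1.23-fold higher value (log2 ratio 0.30), which was the highest ratio of a measured sinusoidal member and about equal to the spread of a single probe set (0.31). Each stabilin was read by 1 probe set.

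Lyve1 encodes a hyaluronan receptor shared by liver sinusoidal and lymphatic endothelium. One of its probe sets gave 47.1 on the orujo array and 15.3 on the olive array, and the other gave 35.0 and 22.6. Only the first value was above the floor, so Lyve1 was at least 1.32-fold higher on the orujo array by that probe set. It represents the gene because values under the floor were raised to it, and so through its signal on the orujo array alone. Both probe sets were higher on that array.

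With a lower floor, the 25th percentile of both arrays (11.8), the Lyve1 probe sets had log2 ratios of 1.62 and 0.63, but 3 of these 4 signals lie in the range otherwise treated as not measured. The comparison group was 4587 probe sets that were equally dim, with both signals above 11.8 and a mean log2 value under the main floor. Of these, 3.31% were higher on the orujo array by 2-fold or more and 4.21% were lower by 2-fold or more. A ratio at least as high as the 1.62 of Lyve1 was found for 0.305% of them, and one at least as high as its 0.63 for 9.94%. The SD of a single probe set in this range was 0.49. It came from 438 genes with 2 probe sets above 11.8 on both arrays. The mean log2 value averaged over the pair lay under the main floor, so 1 of the pair may lie above it. These dim-range comparisons were chosen after the Lyve1 values had been seen. The annotation names the same sequence record for both Lyve1 probe sets, so they are not independent of each other in design.

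Clec4g encodes LSECtin, a C-type lectin of sinusoidal endothelium. Its brighter probe set gave 325 on the orujo array and 309 on the olive array, a log2 ratio of 0.07, the smallest among the measured sinusoidal members. Its other probe set was listed at 9.0 and 8.9, below the floor on both arrays, and gave no ratio.

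Fcgr2b encodes the inhibitory receptor for immunoglobulin G, through which sinusoidal cells take up small immune complexes, and is also expressed by B cells and macrophages. It was the member with the most repeated readings, as all 4 of its probe sets were measured. The brightest gave 408 against 374, with a log2 ratio of 0.13. The others gave 161 against 155, 106 against 91.4, and 80.2 against 78.4. Every reading was slightly higher on the orujo array, from 0.03 to 0.21 on the log2 scale, with a mean of 0.11 ± 0.08 (SD, n = 4 probe sets of the same arrays). The brightest probe set carries a suffix for sequence shared with other genes, and the dimmest a suffix for possible cross-hybridisation. The remaining 2 target several transcripts of the gene itself and gave ratios of 0.05 and 0.21.

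Mrc1 encodes the mannose receptor, an endocytic lectin of sinusoidal endothelium and of macrophages. Its signal was 251 against 215, a 1.17-fold higher value (log2 ratio 0.23) from 1 probe set. The difference is smaller than the spread of a single probe set.

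The general endothelial genes did not share a direction. Kdr encodes VEGFR2, the principal signalling receptor of endothelial cells for VEGF-A. It had 95.8 on the orujo array and 118 on the olive array, a 1.23-fold lower value (log2 ratio -0.30), and was the only measured member with a lower signal there. Of all measured genes, 20.1% had a lower ratio than Kdr.

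Pecam1 encodes CD31, an adhesion molecule of endothelial contacts that platelets and leukocytes also carry. It gave 44.4 and 37.7, close to the floor on both arrays, with a log2 ratio of 0.24. Cdh5 encodes VE-cadherin, the cadherin of endothelial adherens junctions. Its brighter probe set gave 69.8 and 69.4, a log2 ratio of 0.01. The other Cdh5 probe set, at 36.8 and 35.1, straddled the floor and was at least 1.03-fold higher on the orujo array.

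Plvap encodes the protein that forms the diaphragms of caveolae and fenestrae, which mature sinusoidal endothelium largely lacks. It gave 103 on the orujo array and 80.7 on the olive array. This 1.28-fold higher value (log2 ratio 0.36) was the highest of the measured members, and 14.0% of measured genes had a higher one. Plvap had 1 probe set, so no second reading was at hand.

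**Figure D2:**
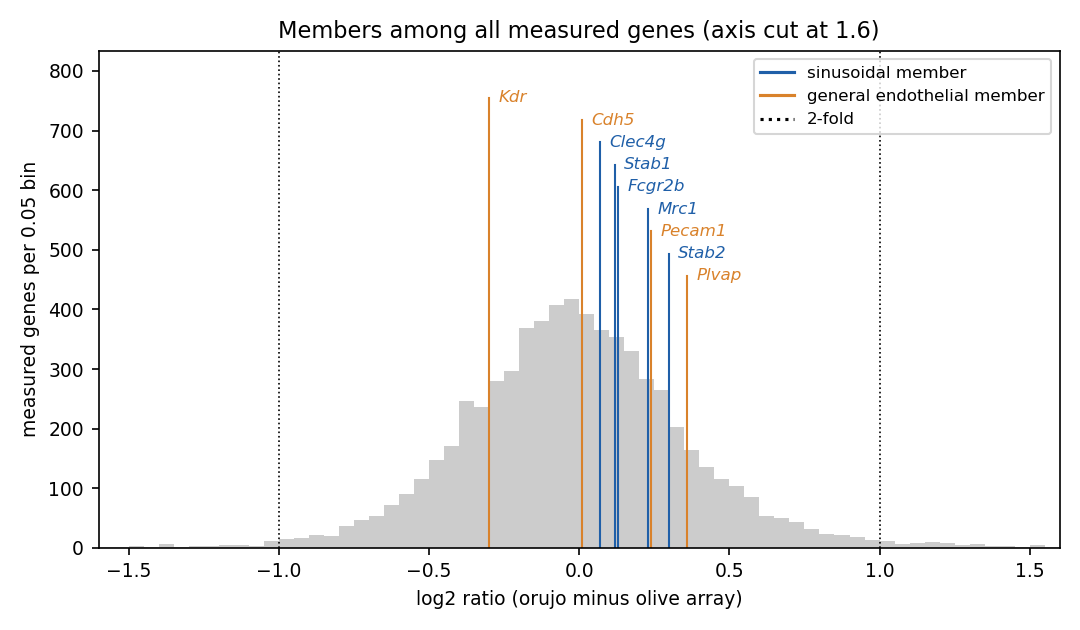
Histogram of the log2 ratio (orujo minus olive array) over 6640 measured genes (y axis, genes per bin), with vertical lines for the 5 measured sinusoidal members (blue) and the 4 general endothelial members (orange). Dotted lines mark 2-fold. All 9 lines lie in the central part of the distribution, between -0.30 and 0.36.

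The medians of the sinusoidal and general endothelial genes were compared as sets. The median log2 ratio was 0.13 over the 5 measured sinusoidal genes and 0.12 over the 4 general ones, with a difference of 0.00 when taken before rounding, and the median of all measured genes was -0.02. Positive ratios were found for 5 of 5 measured sinusoidal genes and 3 of 4 general genes, against 47.1% of all measured genes. The sinusoidal ratios spanned 0.07 to 0.30, inside the general span of -0.30 to 0.36. The summed signal of the 6 sinusoidal genes was 1227 on the orujo array and 1078 on the olive array (0.19 on the log2 scale), and that of the 4 general genes was 313 and 306 (0.03). Brighter genes weigh more in these sums, and Fcgr2b, Clec4g and Mrc1 make up most of the first. That sum also holds Lyve1 at 47.1 against 15.3, which is not in the median because its olive signal is under the floor. Lyve1 thus adds to the higher sum on the orujo array. Without Mrc1 and Fcgr2b, which macrophages also express, the sinusoidal median was 0.12 over 3 genes. That value is the ratio of Stab1, which macrophages express too, so the part of macrophages was not tested by it.

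These medians rest on few genes. Leaving out Pecam1 or Plvap took the general median to 0.01, and leaving out Kdr or Cdh5 took it to 0.24. Without all suffixed probe sets (_s_at, _x_at and _a_at), 3 sinusoidal and 3 general genes remained, with medians of 0.23 and 0.01 and a difference of 0.22.

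Other genes typical of sinusoidal endothelium were centred at 0. Of 16 listed genes, 15 had a probe set and 11 were measured. Their median log2 ratio was -0.02, with 5 positive and 6 negative values. Gpr182, an orphan receptor of sinusoidal cells, was lowest at 83.7 against 115 (log2 ratio -0.46). Ctsl, which encodes the lysosomal protease cathepsin L, was the only gene of this list past 2-fold, with 3314 against 1321, a 2.51-fold higher value. Cathepsin L is made by most cell types, hepatocytes included, so this signal is not specific to endothelium. Clec1b, Ehd3 and Dnase1l3 were named here as further markers of these cells and not by the naming rule. Clec1b, which platelets also express, had a log2 ratio of 0.11 and Dnase1l3 one of -0.06. The brighter probe set of Ehd3 was at 0.00 and its other one at -0.26. The remaining measured genes of the list were Wnt2 at 0.26, F8 at 0.13, Bmp6 at -0.02, Gata4 at -0.18 and Oit3 at -0.24. Flt4 was at -0.02, with 0.18 in its other probe set.

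Other general endothelial genes were likewise centred near 0. Of 38 listed, 33 had a probe set and 18 were measured, with 9 positive and 9 negative ratios, a median of -0.04 and 0 genes past 2-fold. Thbd, which encodes the anticoagulant receptor thrombomodulin, was highest at 66.7 against 36.0 (log2 ratio 0.89), the second value lying just above the floor. Calcrl, a subunit of the adrenomedullin receptor, was lowest at 36.3 against 50.5 (-0.48), the first value lying just above the floor. The receptor tyrosine kinase genes Tek and Tie1 and the sialomucin gene Emcn lay above the floor on the olive array only, by bounds of 1.07-fold, 1.02-fold and 1.01-fold. Flt1, which encodes VEGFR1, lay above it on the orujo array only (at least 1.20-fold). These 4 genes were named after their values were seen.

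Genes that act with Kdr in VEGF and angiopoietin signalling were mostly dim. Of 16 with a probe set, 6 were measured, with a median of -0.11 (-0.44 over 4 genes without suffixed probe sets), 2 positive and 4 negative ratios, and 0 past 2-fold. Nrp1, which encodes a co-receptor of VEGFR2, was lowest, with 123 on the orujo array and 244 on the olive array (log2 ratio -0.99). Its second measured probe set gave 0.00, so the probe sets of Nrp1 disagreed. Vegfb was highest at 65.2 against 36.6 (0.83), the second value lying just above the floor. Vegfa, the ligand of VEGFR2, was named for its role and not by the rule. Its brighter probe set gave 80.4 against 129 (-0.68) and its other one 0.29.

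Junction genes, which encode partners of VE-cadherin and other contact proteins and most of which hepatocytes also express, had a median of 0.05 over 12 measured genes, with 7 positive and 5 negative ratios and 0 past 2-fold. They ranged from Cldn5, the claudin of endothelial tight junctions, at -0.42 to Ctnnd1, p120 catenin, at 0.57. Genes of endothelial activation gave 3 measured values, with a median of -0.38, which became 0.07 over 5 genes with the floor at the 25th percentile. Ackr1, an atypical chemokine receptor, was lowest at -0.39, and Vcam1, a leukocyte adhesion molecule, highest at 0.63, though its other probe sets were at -0.73 and 1.0. Of 10 arterial and Notch pathway genes 2 were measured, Notch1 at -0.42, with 0.34 in its other probe set, and Gja4, the gap junction gene for connexin 37, at 0.49.

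Scavenger receptor, lectin and hyaluronan genes, a list of endocytic receptors, other hyaluronan-binding proteins and hyaluronan synthases, had a median of 0.35 over 9 measured genes, with 6 positive and 3 negative ratios. Scara5, a ferritin receptor of the scavenger family, was 2.76-fold higher on the orujo array (296 against 107), the only measured gene of the list past 2-fold. Has1, a hyaluronan synthase, was above the floor there only and at least 2.11-fold higher (75.1 against 31.6). In the other direction, Cd44, a hyaluronan receptor, was above the floor on the olive array only and at least 1.87-fold lower on the orujo array (34.9 against 66.4), as were Hmmr (at least 1.23-fold) and Pla2r1 (at least 1.12-fold). These genes were named after their values were seen. Msr1, the class A scavenger receptor, was lowest at -0.49. With the floor at the 25th percentile, this median was 0.00 over 15 genes. Fc receptor and signalling genes had a median of 0.01 over 6 measured genes, between Ptpn6, the phosphatase SHP-1, at -0.21 and Fcgrt, the neonatal Fc receptor, at 0.20.

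**Figure D3:**
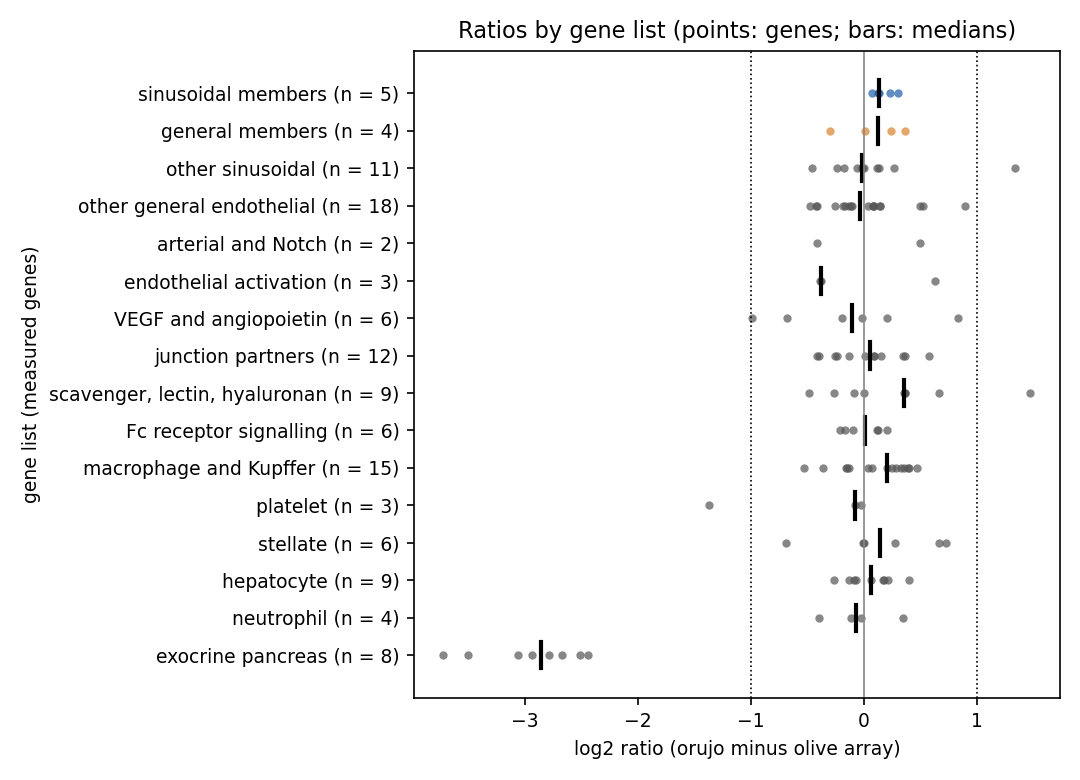
Log2 ratio (x axis, orujo minus olive array) of each measured gene (points) in the member sets and in the companion lists other than the B cell, lymphatic and cholangiocyte ones (y axis, with the number of measured genes). Black bars are medians, given for lists of at least 3 measured genes, and dotted lines mark 2-fold. Both member medians (0.13 and 0.12) lie near 0, while the exocrine pancreas list stands at -2.86.

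Markers of other cells in the samples are given beside these values. Macrophage and Kupffer cell genes had a median of 0.20 over 15 measured of 18 genes with a probe set, with 10 positive and 5 negative ratios. They ran from Siglec1, a sialic acid-binding receptor, at -0.53 to C1qc, a chain of complement C1q, at 0.47. The summed signal of all 18, measured or not, was 5798 against 5328. Some of these cells also express Mrc1, Stab1 and Fcgr2b, and the part of macrophages in those values was not tested. Among B cell genes only Cd22 was measured, with 68.5 on both arrays. Ms4a1, named after its values were seen, was above the floor on the orujo array only (45.9 against 32.9, at least 1.29-fold higher). No B cell gene was above it on the olive array only. Of platelet genes 3 were measured (median -0.08), between Itga2b at -0.03 and Gp1bb, 2.58-fold lower on the orujo array (44.0 against 114). The summed signal of all 6 platelet genes with a probe set, measured or not, was 208 against 277. Lymphatic endothelial genes gave 2 measured values, Reln at -0.40 and Prox1 at 0.22, both of which other liver cells also express.

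Hepatocyte genes, which check the tissue label, were measured for all 9 with a probe set, with a median of 0.06 between Apob at -0.27 and Fgb at 0.40. Stellate cell genes had a median of 0.14 over 6, from Acta2 at -0.69 to Col3a1 at 0.72, and 0 of 4 cholangiocyte genes were measured. The cholangiocyte gene Krt19 was above the floor on the olive array only (15.9 against 42.1, at least 1.18-fold lower on the orujo array). The stellate gene Hgf was above it on the orujo array only (at least 1.16-fold higher). Both were named after their values were seen. Neutrophil genes had a median of -0.07 over 4, from Mpo at -0.40 to Elane at 0.34. The neutrophil genes S100a8 and S100a9, named after their values were seen, were above the floor on the orujo array only, at least 1.71-fold and 1.38-fold higher. The summed signal of all 7 neutrophil genes, measured or not, was 322 against 262. It includes S100a8 at 60.7 against 17.2 and S100a9 at 49.2 against 20.8, with both olive signals under the floor. Exocrine pancreas genes differed most, with 8 of 8 measured genes past 2-fold lower on the orujo array and a median of -2.86. They ranged from Ctrb1, chymotrypsinogen, at 13.1-fold lower to Cel, a lipase gene, at 5.44-fold lower, with Cpa1, Cela2a, Clps, Cela3b, Cpb1 and Prss2 between them. Pnliprp1, above the floor on the olive array only, was at least 6.92-fold lower. With Pnliprp1 included, the summed signal of all 9 exocrine genes with a probe set was 683 against 5388. The pancreas has endothelium of its own, and the part of pancreatic tissue in the endothelial signals was not tested. Ribosomal 18S RNA, read by control probe sets, was also higher on the orujo array. Its log2 ratios were 2.54 and 2.48 in the 5′ and middle probe sets and 0.34 in the 3′ one. The 4 control probe sets for pyruvate carboxylase were higher there by 0.52 to 0.76, while those for actin and Gapdh lay between -0.27 and 0.15. Their part in the endothelial values was not tested. No gene of any list was listed at 0.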

How the data were processed

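Liver RNA was hybridised to 1 Affymetrix array per diet, from about 8 µg of total RNA per the labels. The deposited values are linear probe set intensities as the authors summarised them. The sources used here name no software, version or detection calls. The 2% trimmed mean was 100.05 on both arrays, so no further scaling was applied. Precision is limited by having 1 array per diet.

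The 64 control probe sets were left out, and values under the floor (50th percentile, 35.6) were raised to it before log2. Of 22626 probe sets, 20380 carried 1 gene symbol in the platform annotation, 691 several and 1555 none. Entrez identifiers of all 16 member probe sets matched RefSeq (GRCm38.p6). Coordinates are omitted because the probe sets come with no genome build. The probe set with the highest mean of log2 values, taken after raising to the floor, represented a gene. The rule named all members, and from each of 17 companion lists the highest and lowest measured ratio and any gene past 2-fold. A list median needed 3 measured genes. Members and lists were chosen with earlier results of these data known. Calculations used Python 3.11.15, numpy 2.4.6, pandas 2.3.3 and, for loess, statsmodels 0.14.6, and were tested on simulated data.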

Additional observations from a re-analysis of the deposited data

How the results depend on the processing

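Member results were recomputed under other settings: rescaling to a common trimmed mean, quantile normalization, centring ratios on their median, loess (span 0.4), lower and higher floors (11.8 at the 25th and 101 at the 75th percentile), log2(value + floor), averaging a gene's probe sets, and leaving out probe sets with shared or multi-transcript suffixes. In the 82 single-member values so obtained, 9 of 9 measured members kept their sign. Sizes moved, as Fcgr2b fell from 0.13 to 0.05 without _s_at and _x_at and Pecam1 from 0.24 to 0.13 with log2(value + floor). The limit used to call a value moved, 0.31, the spread of a single probe set, is as large as most member ratios, so staying within it shows little about their size. The sinusoidal median ran from 0.12 to 0.23 and the general median from 0.01 to 0.24, each including every member left out in turn. Their difference ran from -0.01 to 0.22. The 0.22 came without the _s_at, _x_at and _a_at probe sets, which leaves 6 of the members. The setting without _s_at and _x_at only was added after the data were seen and gave 0.00. With the higher floor too few general genes were measured for a median. At 2-fold, 0 members passed in either direction in any of these settings. The 1.5-fold limit was tried at the main floor only, where 0 members passed. With the lower floor Lyve1 would pass it at 1.55-fold, and its other probe set, which does not represent the gene there, reached 1.62 on the log2 scale. Counts over all measured genes moved with the floor. They were 88 higher and 65 lower as reported, 196 and 223 with the lower floor, 50 and 27 with the higher, 56 and 41 with log2(value + floor), and 362 and 373 at 1.5-fold. Of 123 medians of companion lists, 119 moved by less than 0.31. The others were endothelial activation at 0.07 and scavenger genes at 0.00 with the lower floor, VEGF and angiopoietin genes at -0.44 without the suffixed probe sets, and exocrine pancreas genes at -2.39 with log2(value + floor). Small medians also turned sign, neutrophil genes to 0.15 with the lower floor, hepatocyte genes to -0.13 with quantile normalization and junction genes to -0.10 with averaged probe sets. So did the other general endothelial genes, to 0.08 without the suffixed probe sets, and the other sinusoidal genes, to 0.02 with quantile normalization. No replicate could be left out, and low signal limits Lyve1, Pecam1 and the second Cdh5 probe set most.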
